A study of Homo sapiens with 6 samples.

Results

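The genes described here are 10 regulators and products of the epithelial-mesenchymal transition, chosen by symbol: the transcription factors SNAI1, SNAI2, TWIST1, ZEB1 and ZEB2, the splicing regulators ESRP1 and ESRP2, and the products VIM, CDH2 and LOX. Of these 10 genes, 9 had at least 1 probe set annotated with a single gene symbol, 21 probe sets in all, out of 19775 genes so measured on the array. ESRP2 was carried only by a probe set with several symbols, and no value is given for it. The cells were MCF10A, an established line derived from human mammary epithelium that does not form tumours. The numbers seeded in a 35 mm dish were 50K, 100K, 200K, 400K, 600K and 800K (K, 1000 cells), and RNA was collected 24 h later. Each of these 6 densities had 1 Affymetrix HG-U133 Plus 2 array. Every dish received the same medium, with 5% horse serum, EGF at 20 ng/ml, hydrocortisone at 0.5 μg/ml, cholera toxin at 100 ng/ml, insulin at 10 μg/ml and gentamicin. The sources used here do not give the number of dishes behind each array.

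In an epithelial-mesenchymal transition, epithelial cells loosen their junctions and take up features of migrating mesenchymal cells. The SNAI, TWIST and ZEB factors bind E-box sequences in DNA, and SNAI and ZEB factors are known as repressors of epithelial genes such as E-cadherin. ZEB factors are also known to repress ESRP genes, whose proteins set epithelial patterns of splicing. Vimentin filaments and N-cadherin are classical products of mesenchymal cells. MCF10A cells have basal features and are known to make vimentin without any inducer.

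The deposited values were ratios, each probe set divided by its own 50K measurement, so the data show changes and carry no level. Which of the 10 genes is abundant or near the background of the array cannot be read from them, and neither can the presence of the line's defining markers. The median ratio over all probe sets other than controls lay between 1.01 and 1.04 on the 5 other arrays. A trend with density, as defined below, was called for 21.3% of all genes (8.93% rising and 12.4% falling). Of 7 measured markers of basal mammary epithelium 3 rose and 2 fell (LAMB3 and ITGA6), and of 9 fibroblast markers 1 rose (DCN) and 1 fell (FAP), the fibroblast count being close to the share of all genes. Of 6 endothelial markers 2 rose (KDR and PECAM1), and of 4 leukocyte markers 1 rose, CD14, whose ratio to 50K was 5.66 at 800K. The mean ratio of the fibroblast list stayed between 0.968 and 1.07 over the 6 arrays, although FAP ended at 0.506 at 800K. The call of FAP held without any 1 array (limma adjusted p up to 0.0135). The calls of LAMB3 and ITGA6 and those of DCN, KDR and PECAM1 were lost on leaving out single arrays (adjusted p up to 0.227, 0.25, 0.228, 0.156 and 0.1). The part of these markers in the results below was not tested.

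The question of the series, how expression depends on cell density, was put to each gene as the slope of its log2 ratio per doubling of the cells plated, fitted with limma over all genes. A gene was called when its Benjamini-Hochberg adjusted p was under 0.05, and the value of a gene was the mean log2 ratio of its probe sets. ESRP1 and LOX rose with density and ZEB1 and CDH2 fell. SNAI1, SNAI2, TWIST1, ZEB2 and VIM did not pass. Thus 4 of 9 genes were called (44.4%), against 21.3% of all 19775 genes, of which 8.93% rose and 12.4% fell. The median size of the slope was 0.18 over the 9 genes and 0.033 over all genes. The ratios do not show how many of the other genes lay at background. With no replicate of any density, these p-values measure only the scatter of the 6 arrays around a line. In RNA of a whole dish, fewer cells making a transcript and less transcript per cell cannot be told apart.

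**Figure D1:**
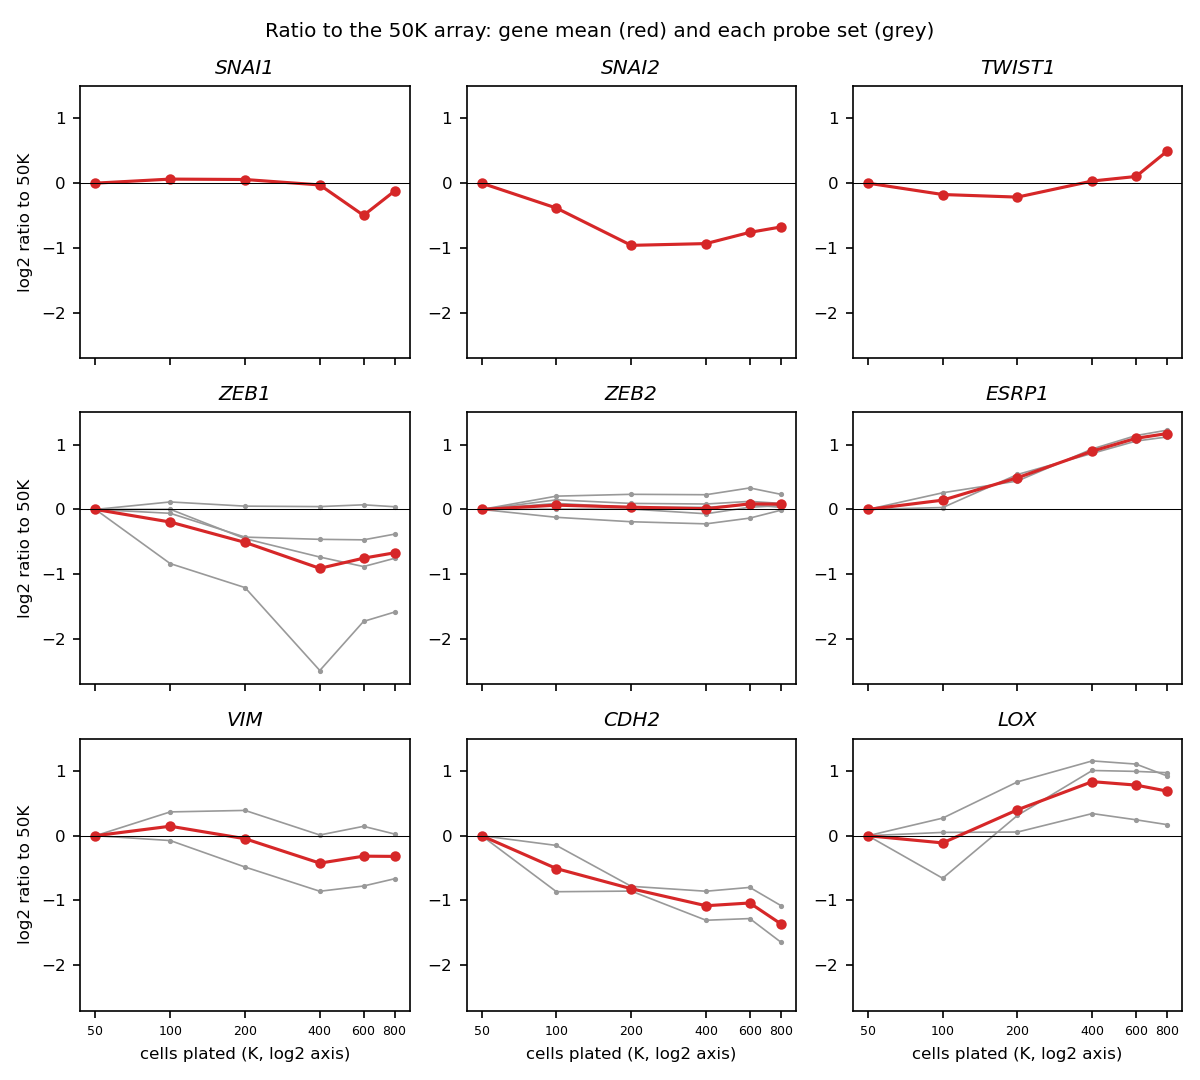
Log2 ratio to the 50K array (vertical axis) against cells plated in units of 1000 (horizontal axis, log2 scale) for the 9 measured genes, 1 array per density; red points and lines are the gene mean over its probe sets and grey lines the single probe sets (for 3 genes there is 1). The 2 probe sets of ESRP1 run together upwards to 1.12 and 1.22 at 800K, those of CDH2 run down, and those of ZEB1, VIM and LOX spread apart.

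The genomic sequence upstream of the called genes is shown for ZEB1, CDH2 and LOX, because the transition factors act through E-boxes in such windows. Each is the 250 bases before the most upstream start of the gene in RefSeq (build GRCh38.p14), written on the strand of the gene, with the E-box CAGGTG or its reverse complement CACCTG in capitals. These 2 words are 1 motif read on either strand and do not overlap each other.
ZEB1, chr10:31318167-31318416, plus strand: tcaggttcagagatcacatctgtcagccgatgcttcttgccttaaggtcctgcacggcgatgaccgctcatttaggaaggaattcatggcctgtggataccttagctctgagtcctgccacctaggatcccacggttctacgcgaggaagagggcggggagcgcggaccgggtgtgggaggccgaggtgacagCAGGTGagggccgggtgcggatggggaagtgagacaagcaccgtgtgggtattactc
CDH2, chr18:28177131-28177380, minus strand: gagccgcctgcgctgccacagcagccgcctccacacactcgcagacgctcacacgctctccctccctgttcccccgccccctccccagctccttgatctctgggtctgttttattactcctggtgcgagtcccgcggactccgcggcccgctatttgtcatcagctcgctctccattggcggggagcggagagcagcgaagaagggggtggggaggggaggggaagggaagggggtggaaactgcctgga
LOX, chr5:122078260-122078509, minus strand: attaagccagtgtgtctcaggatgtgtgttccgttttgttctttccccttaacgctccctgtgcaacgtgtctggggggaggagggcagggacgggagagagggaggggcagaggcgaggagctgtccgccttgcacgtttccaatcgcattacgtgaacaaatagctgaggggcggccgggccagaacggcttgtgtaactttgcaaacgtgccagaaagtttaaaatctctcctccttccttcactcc
The window of ZEB1 held 1 match, beginning 57 bases before the start, and those of CDH2 and LOX held none. The table lists further starts downstream: a match stood in 2 of the 7 windows of ZEB1 and in neither of the 2 of CDH2. The other windows of LOX overlap each other and hold a single match between them. Windows of neighbouring starts can overlap in the whole table too, so 1 site may be counted more than once in its share. Over all 35116 promoter windows of the same length in the table, 17.5% held at least 1 match. The windows of VIM and ZEB2 held none either. ESRP1, the remaining called gene, was not shown, and neither were SNAI1, SNAI2 and TWIST1. Nothing is said here about matches upstream of these genes. A match is a run of letters and not a bound site.

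The SNAI zinc finger repressors gave no trend that passed. SNAI1, which encodes SNAIL, had ratios of 1.04 (100K), 1.04 (200K), 0.981 (400K), 0.708 (600K) and 0.919 (800K). The single low array was 600K, and the other 4 ratios lay between 0.919 and 1.04. Its slope was −0.08 ± 0.05 log2 units per doubling (SE, 6 arrays; limma adjusted p = 0.3). SNAI2, which encodes SLUG, a factor of basal mammary cells, had ratios of 0.766 (100K), 0.514 (200K), 0.524 (400K), 0.59 (600K) and 0.626 (800K). It was thus lowest at 200K and 400K, and 50K was the highest of the 6. The values at 600K and 800K lay above that at 200K by less than the SD of a difference of 2 arrays (0.39 log2 units). That SD was taken from the scatter around the line. It therefore includes any bend and cannot judge this rise. A line described this shape poorly (slope −0.18 ± 0.07, limma adjusted p = 0.121). On leaving out 1 array it passed only without 200K (0.046). Without 50K the slope was −0.07 (limma adjusted p = 0.69).

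TWIST1, a basic helix-loop-helix factor, was highest in the most crowded dish. Its ratios were 0.885 (100K), 0.861 (200K), 1.02 (400K), 1.07 (600K) and 1.41 (800K). The slope of 0.11 ± 0.05 did not pass (limma adjusted p = 0.221), but a fit to the plain cell number did (limma adjusted p = 0.0384). Adjusted over all probe sets, the same fit of its only probe set, 213943_at, did not pass (limma adjusted p = 0.062). Without the 800K array the slope was 0.04 (limma adjusted p = 0.628). The largest step of TWIST1 lay between 600K and 800K. The quadratic term of a second-degree polynomial in log2 of the cells plated measured the bend directly. It was 0.51 ± 0.10 for SNAI2 (unadjusted p = 0.00261) and 0.40 ± 0.08 for TWIST1 (unadjusted p = 0.00265), both with a limma adjusted p of 0.165. Among the 9 genes these were the 2 with an unadjusted p under 0.05, against 12.6% of all genes (2496 of 19775). After adjustment limma called 0 of the 19775 genes (0%) for curvature, the smallest adjusted p being 0.102. SNAI2, TWIST1, ZEB1 and VIM had their lowest value at 200K or 400K, 4 of 9 genes against 20.4% of all genes, a count made after their values were seen.

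ZEB1, a zinc finger and homeobox repressor of epithelial genes, fell with density and levelled off in the crowded dishes. The gene mean had ratios of 0.874 (100K), 0.703 (200K), 0.532 (400K), 0.594 (600K) and 0.629 (800K). All 5 arrays lay below 50K, and the lowest was 400K. The slope was −0.20 ± 0.04 (adjusted p = 0.0186). Leaving out the 50K, 100K or 600K array ended the call (adjusted p = 0.132, 0.0652 and 0.0585), as did comparing the 3 highest with the 3 lowest densities (0.0584) or fitting the plain cell number (0.115). The 4 probe sets of ZEB1 did not move alike. That with the identifier 212764_at fell furthest, to a ratio of 0.56 (100K), 0.433 (200K), 0.178 (400K), 0.302 (600K) and 0.333 (800K). It scattered widely around its line and did not pass by itself (slope −0.45 ± 0.13, adjusted p = 0.0772 over all probe sets). The probe set 212758_s_at passed (slope −0.24 ± 0.03, adjusted p = 0.0126) with ratios of 1.00, 0.731, 0.601, 0.543 and 0.593 from 100K to 800K. The probe set 210875_s_at ended at 0.768 at 800K (adjusted p = 0.0609), and 239952_at stayed between 1.03 and 1.08 on all 5 arrays.

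ZEB2, the close relative of ZEB1, showed no trend. Its gene mean had ratios of 1.05 (100K), 1.02 (200K), 1.01 (400K), 1.06 (600K) and 1.06 (800K), with a slope of 0.01 ± 0.01 (adjusted p = 0.583). The median ratio of all probe sets on the same arrays was 1.03, 1.02, 1.01, 1.04 and 1.02, so that the gene mean of ZEB2 moved with the bulk of the array. Single probe sets of ZEB2 differed from it. The probe set 203603_s_at lay between 0.857 and 0.992 on the 5 arrays, and 235593_at between 1.15 and 1.26. None of its 5 probe sets passed, 4 having a slope above 0 and 1 below, between −0.01 and 0.06. Whether ZEB2 RNA was above background at any density cannot be read from ratios.

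Messenger RNAs of ZEB1 and ZEB2 are textbook targets of the miR-200 family and of miR-205, which hold them down in epithelial cells. The mature sequences are shown, from RefSeq (GRCh38.p14), because they name the 3 seed classes involved, with the seed (bases 2 to 8) in capitals.
hsa-miR-200b-3p: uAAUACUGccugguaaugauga
hsa-miR-200c-3p: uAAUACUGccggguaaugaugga
hsa-miR-429: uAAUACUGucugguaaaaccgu
hsa-miR-200a-3p: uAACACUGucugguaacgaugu
hsa-miR-141-3p: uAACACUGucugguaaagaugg
hsa-miR-205-5p: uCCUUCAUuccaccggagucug
The first 3 share a seed, the next 2 share another, and miR-205 has its own. These microRNAs were not measured. The array did hold probe sets for longer transcripts of their loci, which were picked after their values were seen. MIR205HG, the host transcript of miR-205, had ratios of 1.15 (100K), 1.49 (200K), 1.58 (400K), 2.11 (600K) and 3.62 (800K). It rose with a slope of 0.39 ± 0.07 (adjusted p = 0.0159, and 0.0532 without 50K and 0.0589 without 100K). The probe set annotated to the MIR205 locus itself had a ratio of 2.86 at 800K (adjusted p = 0.0953), and that of MIR200CHG, host of miR-200c, 3.42 (adjusted p = 0.0976). Both of these had their highest value at 800K and did not pass.

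ESRP1, which promotes epithelial exons in transcripts such as that of FGFR2, was the steepest rising of the 9 genes. Its ratios were 1.10 (100K), 1.40 (200K), 1.87 (400K), 2.14 (600K) and 2.25 (800K). Each density was above the one before it, an order that 2.93% of all genes showed upwards and 3.53% downwards, and of the 9 genes ESRP1 alone was strictly ordered. The slope was 0.32 ± 0.02 (adjusted p = 0.000866), and 97.2% of all genes had a smaller slope in size. Both probe sets gave the same picture: 219121_s_at ended at a ratio of 2.34 at 800K and 225846_at at 2.17, with slopes of 0.32 and 0.31 that both passed. The scatter around the line was 0.074 log2 units. The last step, 0.07 between 600K and 800K, was smaller than the SD of a difference of 2 arrays (0.11). The 4 earlier steps exceeded that SD. It comes from the same scatter around the line, so the comparison describes the shape and tests no step. The call held without any 1 array (adjusted p up to 0.00673).

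Of 7 measured genes whose exons ESRP proteins are known to control, 1 rose (SLK, a kinase, slope 0.13 ± 0.03, adjusted p = 0.0231, lost without 600K or 800K) and 6 did not pass. Their median slope was 0.01, against 0.0045 for all genes, of which 21.3% were called and 8.93% rose. The arrays measured these genes near one end of the transcript and not by exon, so splicing itself was not analysed here. Among 11 other splicing regulators of the transition, RBM47, known to restrain the transition, rose (slope 0.17 ± 0.03) and QKI, which is known to act in mesenchymal splicing, fell (−0.08 ± 0.02). RBM47 had 5 probe sets and QKI 10. Both calls ended on leaving out single arrays, that of RBM47 without 50K, 100K or 800K (adjusted p at most 0.124) and that of QKI when 50K, 600K or 800K was left out (at most 0.134). The other 9 did not pass, so that the share of called genes in this list was close to the 21.3% of all genes.

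VIM, which encodes the filament protein vimentin, lay at the edge of the test. The gene mean had ratios of 1.11 (100K), 0.969 (200K), 0.746 (400K), 0.804 (600K) and 0.801 (800K). The 3 sparse dishes were all above the 3 crowded ones. The slope was −0.12 ± 0.03 (adjusted p = 0.0562), and it passed when the 3 highest densities were compared with the 3 lowest (−0.39 log2 units, adjusted p = 0.0306) or when each array was centred on its median (adjusted p = 0.0481). The mean joined 2 probe sets that did not move alike. The probe set 201426_s_at had ratios of 0.95 (100K), 0.715 (200K), 0.552 (400K), 0.584 (600K) and 0.631 (800K) and passed (slope −0.21 ± 0.04, adjusted p = 0.0263). It lost the call without 50K, 100K or 600K (adjusted p up to 0.131). The other, 1555938_x_at, whose suffix marks possible cross-hybridisation, had ratios of 1.29 (100K), 1.31 (200K), 1.01 (400K), 1.11 (600K) and 1.02 (800K) (slope −0.03 ± 0.05). Without probe sets of that suffix VIM was called as falling (adjusted p = 0.0151), an alternative chosen after the data were seen.

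CDH2, which encodes N-cadherin, was the steepest falling of the 9 genes. Its ratios were 0.703 (100K), 0.567 (200K), 0.473 (400K), 0.487 (600K) and 0.389 (800K). All 5 arrays lay below 50K, and 4 of the 5 steps were larger than the SD of a difference of 2 arrays (0.18 log2 units). The exception was that from 400K to 600K, a rise of 0.04. This SD too was taken from the scatter around the line, so the comparison describes the shape and tests no step. The slope was −0.30 ± 0.03 (adjusted p = 0.00292), and the call held without any 1 array (adjusted p up to 0.0167). It ended when the 3 highest densities were compared with the 3 lowest (adjusted p = 0.0851), which puts the early fall between 50K and 100K inside a group. The probe set 203440_at ended at 0.32 of its 50K value at 800K and had already reached 0.549 at 100K. The probe set 203441_s_at was 0.901 at 100K and 0.474 at 800K. Both passed by themselves (adjusted p = 0.0146 and 0.0154), against 13.9% of all 54613 probe sets. Without 50K or 800K neither passed, and without 100K the call of 203441_s_at ended (adjusted p = 0.0502). Of the 21 probe sets of the 9 genes 7 passed (33.3%), 3 rising and 4 falling, against 5.94% rising and 7.96% falling among all probe sets.

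Of 4 other measured cadherins in a chosen list, CDH1 and CDH3 rose and the other 2 did not pass, against 8.93% of all genes that rose. CDH1, which encodes E-cadherin of the adherens junction, had ratios of 1.08 (100K), 1.43 (200K), 1.56 (400K), 1.63 (600K) and 1.74 (800K) (slope 0.21 ± 0.02, adjusted p = 0.00286). CDH3, the P-cadherin of basal epithelial cells, ended at 1.79 at 800K with the same slope of 0.21 ± 0.01. CDH6 and CDH11 were those that did not pass. At 800K, therefore, CDH2 stood at 0.389 of its 50K value and CDH1 at 1.74 times its own. How much of either RNA there was relative to the other is unknown.

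**Figure D2:**
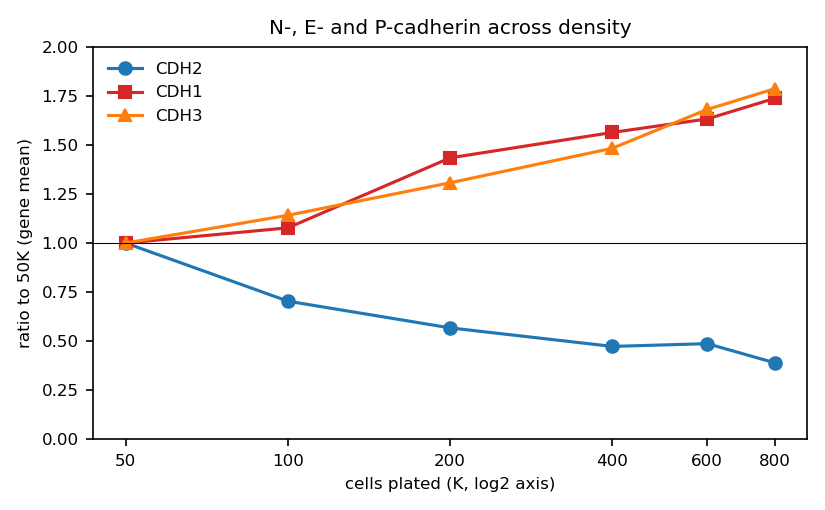
Ratio to the 50K array (vertical axis, gene mean over probe sets) against cells plated in units of 1000 (horizontal axis, log2 scale) for CDH2, CDH1 and CDH3, 1 array per density. CDH2 lies below 1 on all 5 arrays and ends at 0.389, while CDH1 and CDH3 lie above 1 and end at 1.74 and 1.79.

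LOX, a secreted oxidase that crosslinks collagen and elastin, rose, while CDH2 fell and VIM did not pass. Its gene mean had ratios of 0.926 (100K), 1.32 (200K), 1.78 (400K), 1.72 (600K) and 1.61 (800K). In the gene mean the rise lay between 100K and 400K, in 2 steps of 0.51 and 0.43 log2 units. The 3 crowded dishes differed by less than the SD of a difference (0.27). That SD includes any bend and cannot judge whether the rise ended. The slope was 0.24 ± 0.05 (adjusted p = 0.0175), and the call ended without 50K (0.0524), without 600K (0.0607) or in a fit to the plain cell number (0.0604). All 3 probe sets had slopes above 0, of 0.28 ± 0.05 for 204298_s_at, 0.07 ± 0.03 for 213640_s_at and 0.37 ± 0.10 for 215446_s_at, and 204298_s_at alone passed by itself (adjusted p = 0.0266, and up to 0.172 without single arrays). The probe set 215446_s_at was at 0.634 at 100K, below its 50K value, and at 1.96 at 800K. At 100K the other probe sets lay above their 50K values, 213640_s_at at 1.04 and 204298_s_at at 1.21. From there 204298_s_at went to 1.78 (200K), 2.23 (400K), 2.15 (600K) and 1.90 (800K).

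Of 17 genes of the LOX family and of collagen modification, 5 fell (12.4% of all genes did), none rose in limma (1 had an unadjusted p under 0.05 upwards) and 12 did not pass. As many fell without any 1 array, and 1 rose without 50K or without 400K. LOXL3, a relative of LOX, fell with a slope of −0.37 ± 0.05 and stood at 0.331 of its 50K value at 800K. PLOD2, a lysyl hydroxylase that prepares collagen for crosslinks, fell with −0.33 ± 0.02 (adjusted p = 0.000527). The others that fell were PLOD3, PLOD1 and the collagen chaperone SERPINH1, with slopes between −0.17 and −0.15. LOXL1, LOXL2 and LOXL4 did not pass. The median slope of the list was −0.0056.

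**Figure D3:**
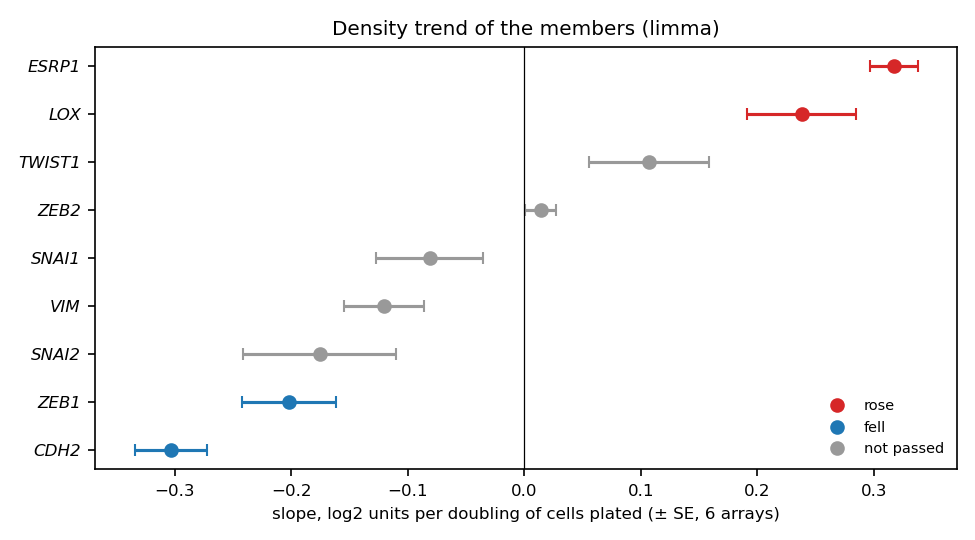
Slope of the log2 ratio per doubling of cells plated (horizontal axis, points) with its standard error (bars) for the 9 genes, fitted over 6 arrays with limma. ESRP1 and LOX (red) rose, ZEB1 and CDH2 (blue) fell, and the 5 grey genes between them did not pass.

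Among 16 other transcription factors of the transition, 3 rose, 3 fell and 10 did not pass (median slope 0.0010), against 8.93% rising and 12.4% falling among all genes. ETS1, a factor of invasive and mesenchymal cells, fell with a slope of −0.58 ± 0.04 (adjusted p = 0.00102), a larger change than that of any of the 9 genes, and reached 0.215 of its 50K value at 800K. TWIST2, the relative of TWIST1, fell with −0.30 ± 0.04 and had ratios of 0.955 (100K), 0.789 (200K), 0.483 (400K), 0.506 (600K) and 0.489 (800K). RUNX2 fell by a small amount (slope −0.06), and 100K was the only array whose absence left its call in place (adjusted p up to 0.256). SOX9, known from mammary stem cells, rose with 0.35 ± 0.02 and KLF8 with 0.28 ± 0.04, and FOXQ1 rose as well (0.21, lost when 50K, 100K or 600K was left out, at most 0.153). SNAI3, PRRX1, GSC and TCF4 had slopes between −0.0016 and 0.01.

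Of 12 measured factors that hold the epithelial state, 7 rose, none fell in limma (1 had an unadjusted p under 0.05 downwards) and 5 did not pass, with a median slope of 0.16. Among all genes 8.93% rose and 12.4% fell. On leaving out 1 array 6 or 7 rose, and 1 fell without 100K. GRHL3, a grainyhead factor of epidermal differentiation, rose with a slope of 0.92 ± 0.07 (11.2-fold higher at 800K) and EHF, an ETS factor of epithelia, with 0.82 ± 0.06 (8.80-fold). ELF3, KLF5, GATA3, GRHL1 and OVOL1 rose too, OVOL1 not without 50K or 800K (adjusted p up to 0.0899). GRHL2 and OVOL2, both known as direct repressors of ZEB1, did not pass, with slopes of 0.03 and −0.05.

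Of 26 epithelial genes that the transition factors are known to repress, 16 rose, none fell in limma (1 had an unadjusted p under 0.05 downwards) and 10 did not pass (median slope 0.14), against the same 8.93% and 12.4% of all genes. Between 12 and 16 rose on leaving out 1 array. MUC1, a mucin of the apical surface, rose with 0.73 ± 0.01 and was 7.50-fold higher at 800K, and CLDN7, a tight junction claudin, rose with 0.66 ± 0.06. CDH1 belongs to this list as well. KRT18 and KRT19, keratins of simple epithelia, had slopes of −0.10 and 0.0043 and did not pass.

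Of 26 other products of mesenchymal cells, 8 fell, 3 rose and 15 did not pass (median slope −0.0080). Over all genes 12.4% fell and 8.93% rose, a share to which the 3 rising members are close. FN1, which encodes the matrix protein fibronectin, fell with −0.49 ± 0.02 over 7 probe sets and TGFBI, a matrix protein induced by TGF-beta, with −0.42 ± 0.02. The others that fell were TAGLN, AXL, VCAN, FAP, FSTL1 and TNC. TAGLN lost its call without 100K, 600K or 800K (adjusted p up to 0.0685) and VCAN when 50K, 100K, 600K or 800K was left out (at most 0.0949). S100A4 rose with 0.21 ± 0.01 and COL5A2 with 0.17 ± 0.04, and DCN rose as well (0.08). The call of COL5A2 was lost when 50K, 100K or 600K was left out (at most 0.225), and without any of these 3 arrays S100A4 was the only member called as rising, while between 6 and 9 of the list fell without any 1 array. COL1A1, COL1A2, COL3A1, POSTN and MMP2 had slopes between −0.0083 and 0.0082. These lists overlap with lists whose changes in these samples were known when they were drawn up, so their direction is not independent evidence.

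Of 20 cofactors and turnover genes of SNAIL, 2 fell, 2 rose and 16 did not pass (median slope −0.0084), a share of called genes close to the 21.3% of all genes. WTIP, a LIM protein of the Ajuba family that serves SNAIL as a corepressor, fell with −0.36 ± 0.03, and FBXO45, part of a ubiquitin ligase for it, with −0.18 ± 0.02. RCOR1 (0.08) and CSNK1D (0.07) rose, calls that ended without 600K for both genes, and without 100K or 800K for CSNK1D. Without 400K 5 of the list fell. Of 12 partners of vimentin and other intermediate filament genes none passed in limma (3 had an unadjusted p under 0.05, all downwards), with slopes between −0.30 (LMNB1, a nuclear lamin) and 0.04, and 1 fell without 400K.

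**Figure D4:**
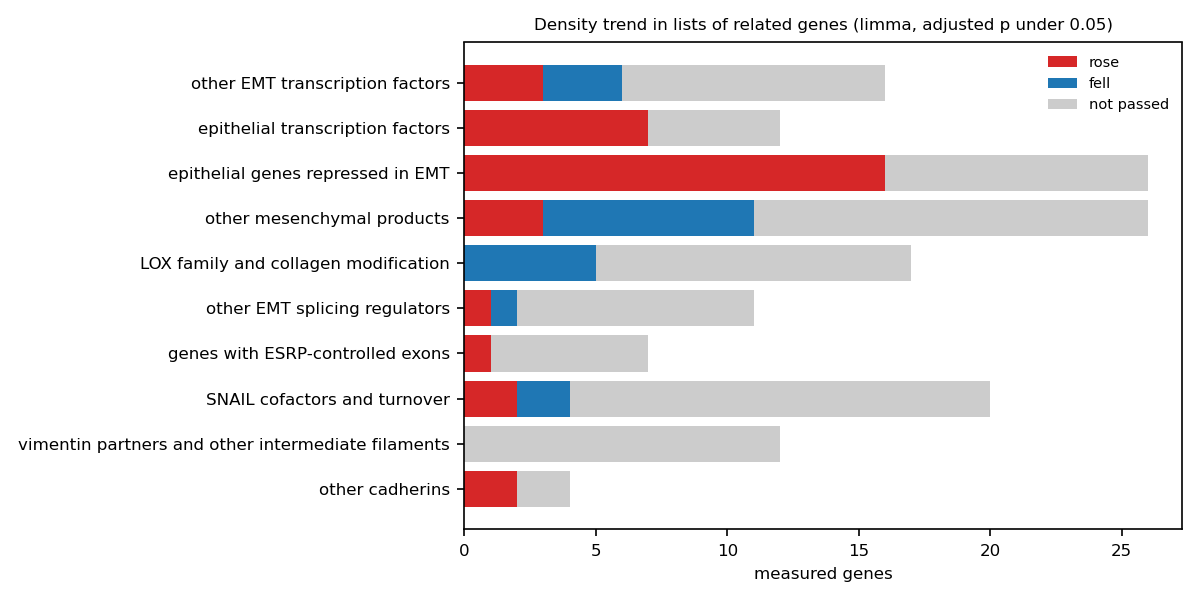
Number of measured genes (horizontal axis) that rose, fell or did not pass in limma at an adjusted p under 0.05, for 10 lists of genes related to the transition. The 2 epithelial lists hold 7 and 16 rising genes and no falling one, and the list of other mesenchymal products holds 8 falling and 3 rising genes.

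Between 800K and 50K, 2 of the 9 genes differed by 2-fold or more. ESRP1 was 2.25-fold higher, against 2.25% of all genes that were at least 2-fold higher, and CDH2 was 2.57-fold lower, against 2.69% that were at least 2-fold lower. The genes whose profiles were nearest to these 2 were found by the root mean square difference of the log2 ratio over the 5 arrays from 100K to 800K. Nearest to ESRP1 were PIM3 (0.017), IFI16 (0.068) and GPM6B (0.075), and 114 of 19774 genes lay within 0.2. Nearest to CDH2 were ASAH2B (0.065), ZNF697 (0.098) and HOMER3 (0.10), and 40 genes lay within 0.2. With 5 values per profile such likeness is a description only.

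**Figure D5:**
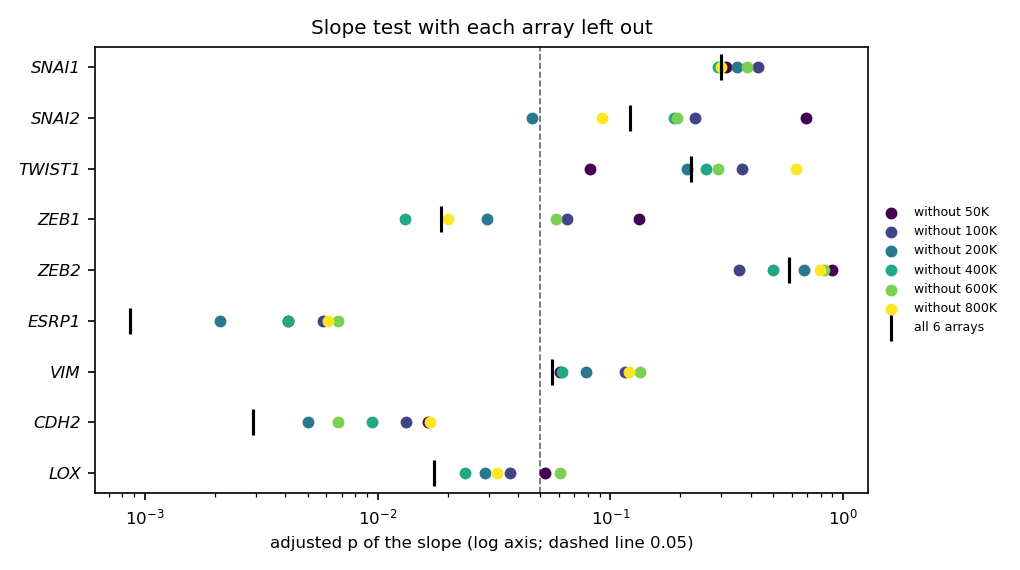
Adjusted p of the slope (horizontal axis, log scale, dashed line at 0.05) for each of the 9 genes, with all 6 arrays (black bars) and without each array in turn (coloured points). ESRP1 and CDH2 stay left of the line without any 1 array, ZEB1 crosses it without 50K, 100K or 600K, LOX without 50K or 600K, and SNAI2 falls below it without 200K.

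Only ESRP1 and CDH2, of the 4 called genes, thus kept their call without each array in turn. The number of genes called among the 9 was 2 without 50K or 600K and 5 without 200K, while over all genes it was 2388 without 800K and 2447 without 600K, against 4220 with all arrays.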

How the data were processed

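Per the labels' protocols, Affymetrix HG-U133 Plus 2 arrays were hybridised with biotin-labelled product of 200 ng total RNA. The submitters' processing notes name RMA, with no version given. The deposited values are linear ratios to the 50K array: its column equals 1 throughout, within 6e-08. The step that made the ratio, and any scaling beyond RMA, are not stated in those sources.

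The log2 of each deposited ratio was used, without a filter. Of 54613 probe sets other than controls, 41091 had 1 gene symbol in the platform annotation, and their mean gave 19775 genes. Slopes and quadratic terms came from limma 3.58.1 (R 4.3.3; 4 and 3 residual degrees of freedom, two-sided, Benjamini-Hochberg adjustment over all genes or probe sets). Errors after ± are standard errors. The number of arrays limits the precision. On simulated data for 19775 genes, the trend test recovered 80% of genes changed by 2-fold and 93% changed by 4-fold.

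The genes and lists were chosen with earlier results of these data known. Named genes were the 10, up to 2 called genes per list and direction with the largest slopes, and the 3 nearest profiles of genes spanning 1 log2 unit. Others were named after their values were seen. Alternatives concerned probe sets, centring, the density scale, variance and single arrays.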

Additional observations from a re-analysis of the deposited data

How the results depend on the processing

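No paired analysis was possible because each density had 1 array and the numbers pair nothing. Without probe sets ending in _x_at or _s_at, 2664 genes were called and 2 of the 7 genes of interest then measured, with ZEB1 at an adjusted p of 0.0669. VIM and LOX gave no value there. Comparing the 3 highest with the 3 lowest densities called 2259 genes. In a fit to the plain cell number 3 of the 21 probe sets passed. Leaving out 1 array gave 2388 to 3909 genes, 2 to 5 of the 9 genes, 2801 to 6770 probe sets and 4 to 8 of the 21. The slopes of the 9 genes kept their sign under all alternatives. Slopes that changed sign belonged to probe sets that never passed: with centring −0.0022 for 239952_at (ZEB1) and −0.0012 for 228333_at (ZEB2), and in a fit to the plain cell number −7.6e-05 for 239952_at and 0.0033 for 203603_s_at (ZEB2), per 100K cells. On leaving out 1 array they ranged from −0.018 to 0.013 for 239952_at, −0.043 to 0.025 for 203603_s_at, −0.012 to 0.012 for 228333_at, −0.0024 to 0.013 for 233031_at and −0.012 to 0.026 for 233033_at (ZEB2). Curvature turned sign for ZEB2 without the 2 kinds of probe set (−0.038), and with the rank of density for ESRP1 (−0.10) and VIM (0.049). The cause was not tested. Ratios carry no signal over background, so falls that reach background are understated.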
